A study of Mus musculus with 4 samples.

Results

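Bone morphogenetic protein (BMP) genes were followed in mouse primary intestinal epithelial cells given interleukin-17A (IL-17A), fibroblast growth factor 2 (FGF2) or both. The genes were the ligands Bmp2, Bmp4, Bmp5 and Bmp7, the antagonist Grem1, the receptor Bmpr1a and the targets Id1, Id2 and Id3. They were chosen by name, with every probe set annotated to that symbol alone, which gave 9 of 18193 genes and 20 of 34945 probe sets. There were 4 groups with 1 array each: cells stimulated for 6 h with IL-17A plus FGF2, with IL-17A (50 ng/ml), with FGF2 (5 ng/ml), and cells left untreated. Per the labels' protocols all came from isolated crypts plated on fibronectin in a medium with fetal serum and insulin. The mouse strain, the number of animals and the culture time of the untreated cells were not given in the sources used here. Every difference below is therefore a difference between arrays, with no replicate error.

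BMP ligands bind pairs of type I and type II receptor kinases, which phosphorylate SMAD proteins that enter the nucleus with SMAD4. The Id genes, which encode helix-loop-helix proteins that lack a DNA-binding region and hold other such factors inactive, are direct targets of these SMADs. In the intestine BMP signalling is strong toward the villus and weak at the crypt base, where stromal cells secrete antagonists such as gremlin 1.

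Values are MAS5 signals, and folds are ratios of signals after values under the floor were raised to it. The floor was the median of all signals (89.8), and the 12258 genes over it on at least 1 array are called measured. All 9 genes were measured, each by its brightest probe set on all 4 arrays. Of the 20 probe sets, 18 were over the floor on every array. The exceptions were 1432410_a_at of Bmp7, over it on the FGF2 array alone (signal 145), and 1445413_at of Bmpr1a, under it everywhere (4.31 to 31.4). For scale, the interaction of the factors (log2 combined minus IL-17A minus FGF2 plus untreated) was computed for every measured gene. If it were all error, the SD of a log2 ratio would be 0.09 in the brightest genes (mean log2 signal over 12), 0.13 in those between 10 and 12, 0.20 in those between 8 and 10 and 0.29 in dimmer ones. Real interaction is part of this yardstick, so it is not a test.

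Epithelial markers, among them Epcam, Cdh1 and Krt8, were over the floor on all arrays (7 of 7), with summed signals of 120997 (IL-17A plus FGF2), 118284 (IL-17A) and 118523 (FGF2), against 113411 in untreated cells. Markers of other cells were present too. The 7 fibroblast markers summed to 43805, 57616 and 41290 on the combined, IL-17A and FGF2 arrays, against 54149 on the untreated array. The 6 smooth muscle markers summed to 23176, 35126 and 24919, against 34352, and the 6 endothelial markers to 7448, 4679 and 7044, against 4931. The 5 enterocyte markers on the array summed to 7368, 10112 and 15534, against 20778. Glial markers (3 on the array) summed to 1145, 1318 and 859, against 1260, and macrophage markers (4) to 1822, 2003 and 1733, against 1855.

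**Figure D1:**
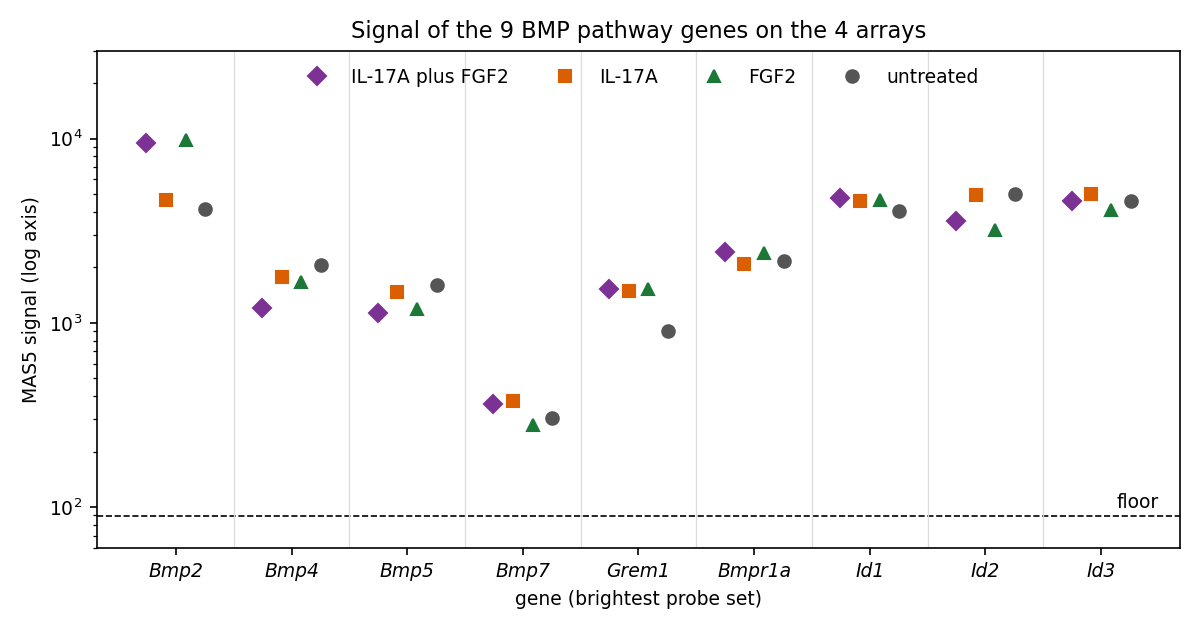
Signal (log axis) of the brightest probe set of each gene on the 4 arrays, 1 point per array, with the floor of 89.8 as a dashed line. Bmp2 had signals of 9508 and 9856 on the arrays with FGF2, against 4633 and 4144 on those without it, and Grem1 was lowest on the untreated array, at 900.

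Among the ligands, Bmp2 was higher wherever FGF2 was present. Its only probe set had a signal of 9508 with IL-17A plus FGF2 and 9856 with FGF2, against 4633 with IL-17A and 4144 in untreated cells. The 2 arrays with FGF2 were the high ones. The share of measured genes that split this way was not counted, here or for genes below. Bmp2 was 2.38-fold higher with FGF2 than in untreated cells and 2.05-fold higher with both factors than with IL-17A alone. These pairs of arrays have none in common. Under quantile normalization the log2 ratio for both factors against IL-17A was 0.99, just short of 2-fold. With both factors it was 2.29-fold above untreated cells. It was the only member at least 2-fold different in any of the 5 comparisons: 1 of 9 members was at least 2-fold higher with FGF2 against untreated, where 0.473% of measured genes were. For both factors against untreated it was again 1 of 9, beside 0.906% of measured genes, and for both against IL-17A 1 of 9, beside 0.547%. No member, 0 of 9, was at least 2-fold lower in these comparisons, where 0.963%, 1.73% and 0.857% of measured genes were.

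With IL-17A alone Bmp2 was 1.12-fold above untreated cells, and with both factors 1.04-fold below FGF2 alone. No member was at least 2-fold higher or lower in these comparisons, 0 of 9 each. Of measured genes, 0.375% were higher and 0.228% lower with IL-17A against untreated, and 0.367% higher and 0.269% lower with both factors against FGF2. Among all measured genes the log2 ratio of Bmp2 for FGF2 against untreated (1.25) was number 39 from the top, and its mean over both readings of FGF2 (1.14) number 42. The summed endothelial markers were also high on both arrays with FGF2. All 6 were above untreated with FGF2 and 5 with both factors, the exception being Tek at -0.05. Their part in the Bmp2 values was not tested. In bulk RNA fewer cells of a type and less RNA per cell cannot be told apart.

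Bmp2 was the only member whose highest and lowest signals were at least 2-fold apart in its brightest probe set. The measured genes nearest to it in their 3 log2 ratios against untreated, by Euclidean distance, were Nr4a2 (distance 0.13), Ccno (0.16) and Inhba (0.19). Nr4a2, an orphan nuclear receptor gene, had signals of 974 with both factors, 515 with IL-17A and 1139 with FGF2, against 455 in untreated cells. Inhba, which encodes the activin A subunit and so another ligand of the TGF-beta family, had 8447, 4715 and 8626, against 3958. Ccno had 220, 92.8 and 204, against 87.8, which is under the floor and was raised to it. The distances rest on 4 arrays and 3 ratios that share the untreated array.

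Bmp4, a ligand made largely by the mesenchyme under the epithelium, was lowest with both factors. Its only probe set had a signal of 1207 with IL-17A plus FGF2, 1763 with IL-17A and 1661 with FGF2, against 2052 in untreated cells. All 3 treated arrays were below the untreated one. The combined array was 1.70-fold below untreated, 1.46-fold below IL-17A and 1.38-fold below FGF2, while each factor alone was 1.16-fold (IL-17A) and 1.24-fold (FGF2) below untreated. Of the 3257 measured genes of like brightness, 3.01% were at least as far from 0 with both factors against untreated. The interaction was -0.24, and 16.1% of those genes had one at least that large in size.

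Bmp5, a stromal ligand too, was read by 3 probe sets that agreed for the combination and differed for FGF2. The brightest, 1455851_at, had signals of 1132 with both factors, 1461 with IL-17A and 1193 with FGF2, against 1594 in untreated cells. Probe set 1421283_at had 465, 678 and 652, against 710, and 1421282_at had 293, 492 and 455, against 496. On the combined array all 3 were below the other arrays, by log2 ratios of -0.49, -0.61 and -0.76 against untreated. For FGF2 alone they were at -0.42, -0.12 and -0.12, and for IL-17A alone between -0.13 and -0.01. The deficit with FGF2 alone thus rests on the brightest probe set, and the dimmer pair placed nearly all of it on the combined array.

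The summed signals of fibroblast and smooth muscle markers were also below untreated on both arrays with FGF2. All 6 smooth muscle markers were below 0 there, and of the 7 fibroblast markers 5 were with both factors and 6 with FGF2. The exceptions were Dcn (log2 ratios of 0.54 and 0.26) and, with both factors, Lum (0.37). All 5 enterocyte markers were below untreated on every treated array, and their sum was lowest on the combined array. Their part in the Bmp4 and Bmp5 values was not tested.

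Bmp7, a ligand needed for kidney development, stayed within 1.35-fold over the 4 arrays in its brightest probe set, 1435479_at. It had signals of 363 with both factors and 374 with IL-17A, against 277 with FGF2 and 305 in untreated cells, so the arrays with IL-17A were the higher ones. IL-17A against untreated gave a log2 ratio of 0.29 and both factors against FGF2 gave 0.39. The yardstick SD at this brightness was 0.20. Probe set 1418910_at had 336, 298 and 318, against 283, with log2 ratios for IL-17A of 0.07 and 0.08, so it did not share the difference.

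**Figure D2:**
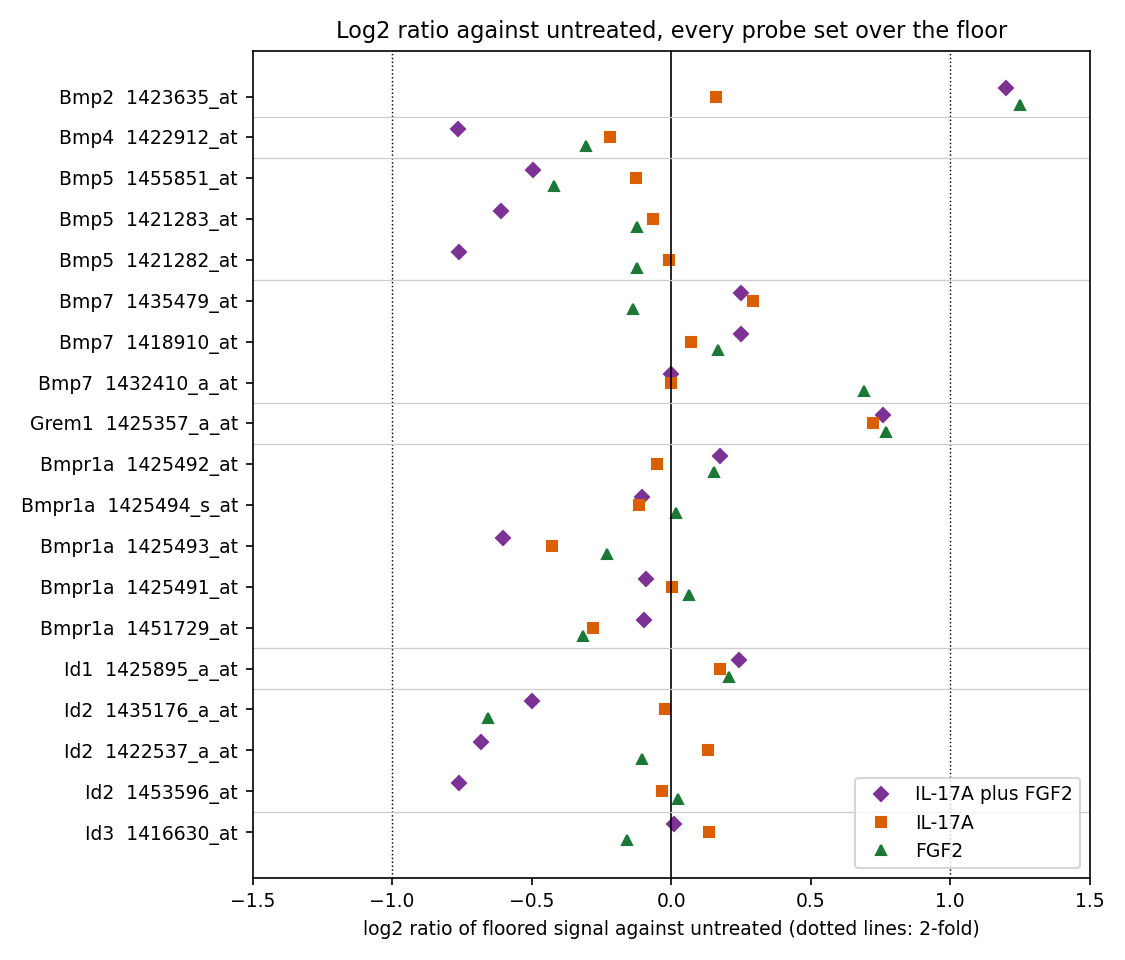
Log2 ratio of floored signal against untreated for the 19 probe sets over the floor on at least 1 array, with a point each for IL-17A plus FGF2, IL-17A and FGF2 and dotted lines at 2-fold. Bmp2 alone passed 2-fold, and the 3 probe sets each of Bmp5 and Id2 lay between -0.49 and -0.76 for the combination but apart for FGF2.

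Grem1 encodes gremlin 1, a secreted protein that binds BMP2, BMP4 and BMP7 and keeps them from their receptors. Its only probe set had a signal of 1524 with both factors, 1486 with IL-17A and 1533 with FGF2, against 900 in untreated cells. The 3 treated arrays lay within 1.03-fold of each other, and the untreated array was the low one. The folds over untreated were 1.69 (both), 1.65 (IL-17A) and 1.70 (FGF2), all against the same array. Both factors together gave 1.03-fold the signal of IL-17A alone, and 1.01-fold less than FGF2 alone.

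The interaction of Grem1 was -0.73, and 0.276% of the 3257 measured genes of like brightness had one at least as large in size. A low value of the single untreated array and a level that either factor alone reaches cannot be told apart in this layout. Beside the Grem1 log2 ratios of 0.76 (both), 0.72 (IL-17A) and 0.77 (FGF2), the summed fibroblast markers were at -0.31, 0.09 and -0.39, the smooth muscle markers at -0.57, 0.03 and -0.46 and the epithelial markers at 0.09, 0.06 and 0.06. Sums weigh bright markers most. The medians of the single markers' log2 ratios, in the same order, were -0.64, 0.09 and -0.58 for fibroblasts. They were -0.77, -0.02 and -0.76 for smooth muscle and 0.14, 0.07 and 0.10 for epithelium. Of the 7 fibroblast markers, 5 were below untreated with both factors, 3 with IL-17A and 6 with FGF2. Dcn was above untreated on all treated arrays (0.54, 0.28 and 0.26) and was the only 1 above it with FGF2. The part of these cells in the Grem1 values was not tested.

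The promoters of Grem1 and Bmp4 are shown because these genes went opposite ways on the treated arrays, and those of Id2 and Id3 because Id genes are direct SMAD targets. RefSeq windows were matched for 6 of the 9 members, none of them Bmp2, Bmp7 or Id1. The bases shown are the 250 upstream of the annotated start, 5′ to 3′ on the strand of the gene, in GRCm38.p6. They are chr2:113758649-113758898 (minus strand) for Grem1, chr14:46390670-46390919 (minus) for Bmp4, chr12:25096093-25096342 (minus) for Id2 and chr4:136143572-136143821 (plus) for Id3. Capitals mark matches on either strand to GGCGCC, a GC-rich sequence bound by BMP SMADs that reads alike on both strands, and to CAGAC, the SMAD box, whose other strand reads GTCTG. No marked matches overlap each other.
Grem1: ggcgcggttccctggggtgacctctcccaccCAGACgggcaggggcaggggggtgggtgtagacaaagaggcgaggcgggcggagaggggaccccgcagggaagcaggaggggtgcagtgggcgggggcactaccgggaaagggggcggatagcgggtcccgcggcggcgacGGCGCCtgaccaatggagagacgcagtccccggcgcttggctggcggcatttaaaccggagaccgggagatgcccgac
Bmp4: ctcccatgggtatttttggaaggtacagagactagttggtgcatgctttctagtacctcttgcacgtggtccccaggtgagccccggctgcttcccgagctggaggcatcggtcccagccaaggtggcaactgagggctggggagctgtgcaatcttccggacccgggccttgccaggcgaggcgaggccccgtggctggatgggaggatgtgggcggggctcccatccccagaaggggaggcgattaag
Id2: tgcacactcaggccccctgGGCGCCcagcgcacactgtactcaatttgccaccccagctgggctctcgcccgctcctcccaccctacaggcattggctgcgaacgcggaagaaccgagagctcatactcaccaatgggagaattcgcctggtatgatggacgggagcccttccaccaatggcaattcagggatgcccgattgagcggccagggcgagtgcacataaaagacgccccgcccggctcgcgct
Id3: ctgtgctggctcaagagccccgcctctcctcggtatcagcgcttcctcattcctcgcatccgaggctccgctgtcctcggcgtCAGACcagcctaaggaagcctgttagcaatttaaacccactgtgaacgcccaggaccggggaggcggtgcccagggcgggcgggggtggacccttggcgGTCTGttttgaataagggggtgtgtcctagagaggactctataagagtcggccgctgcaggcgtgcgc

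GGCGCC stood 78 to 73 bases upstream of the Grem1 start and 231 to 226 bases upstream of the Id2 start. CAGAC or its other strand matched at 1 place for Grem1 and 2 for Id3, and the Bmp4 window held neither motif. Of the 6 member windows, 3 held GGCGCC and 3 held CAGAC. Over all 32851 RefSeq windows of the same length the shares were 9.59% and 42.2%. These shares were not matched for GC content. The windows with GGCGCC held 72.0% (Grem1), 78.8% (Bmpr1a) and 62.8% (Id2) G and C. Those without it held 63.2% (Bmp4), 62.8% (Id3) and 42.8% (Bmp5). The matches are a description of letters, and no binding was measured here.

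Bmpr1a encodes a type I BMP receptor, the one most studied in the intestine. Its brightest probe set, 1425492_at, had signals of 2437 with both factors, 2082 with IL-17A and 2397 with FGF2, against 2156 in untreated cells, a range of 1.17-fold. Of its 6 probe sets 5 were over the floor on all arrays. Among these, 1425493_at stood apart with 674, 761 and 873, against 1024, a log2 ratio of -0.60 for the combination, while the brightest was at 0.18 and the other 3 between -0.11 and -0.09. For the combination, as for IL-17A alone, 4 of these 5 were thus below 0, and for FGF2 alone 2 of 5. The mean of all 6 probe sets was at -0.60 for the combination, so the direction turned with the way the gene was represented. That mean was taken before the floor was applied. It includes 1445413_at, under the floor everywhere, whose unfloored log2 ratio was -2.87, so its size rests largely on that probe set.

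The Id targets did not move together. Id1 had signals of 4783 with both factors, 4561 with IL-17A and 4667 with FGF2, against 4042 in untreated cells. All 3 treated arrays were above the untreated one, by 1.18-, 1.13- and 1.15-fold. Its log2 ratios of 0.24, 0.17 and 0.21 share that array, and 27.9%, 13.7% and 23.5% of the 1103 measured genes in the brightest class were at least as far from 0.

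Id3 had signals of 4608 with both factors, 5031 with IL-17A and 4104 with FGF2, against 4575 in untreated cells. The arrays differed by at most 1.23-fold. Its log2 ratio for the combination was 0.01, and -0.01 under quantile normalization. Those for FGF2 were -0.16 without and -0.13 with IL-17A, and those for IL-17A 0.14 without and 0.17 with FGF2.

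Id2, known for its place in lymphocyte development, was lower with both factors in all 3 of its probe sets. The brightest, 1435176_a_at, had signals of 3560 with both factors, 4952 with IL-17A and 3194 with FGF2, against 5031 in untreated cells. Here both arrays with FGF2 were low: FGF2 was 1.58-fold below untreated, and both factors 1.39-fold below IL-17A. Probe set 1422537_a_at had 1331, 2341 and 1986, against 2134, and the dim 1453596_at had 90.0, 149 and 155, against 152. In these only the combined array was low.

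Log2 ratios of the 3 Id2 probe sets for both factors against untreated were -0.50, -0.68 and -0.76, and for FGF2 alone -0.66, -0.10 and 0.02. Their interactions were 0.18, -0.71 and -0.75, so the sign of the interaction depended on the probe set. The lower Id2 signal with both factors was thus shared by every probe set, and the one with FGF2 alone was not.

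**Figure D3:**
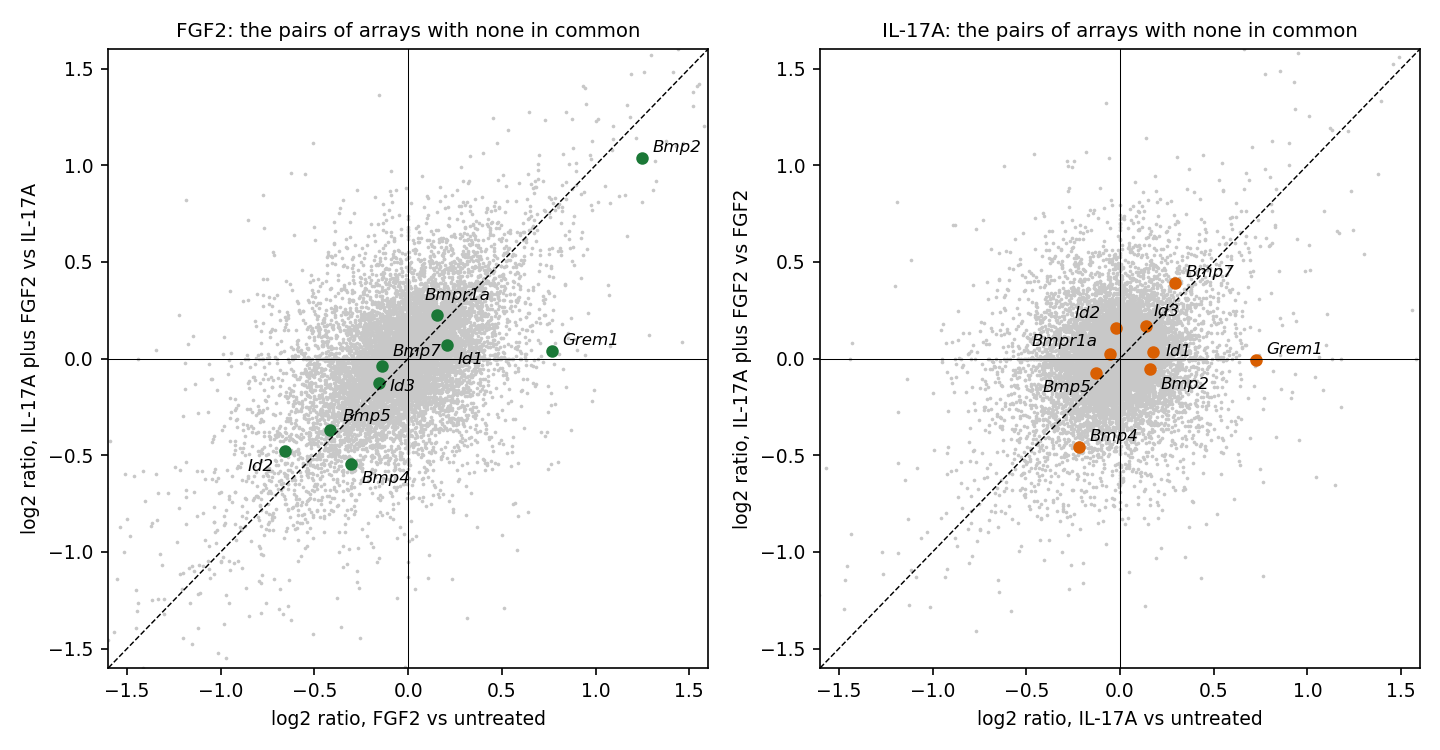
Log2 ratios for FGF2 (left) and IL-17A (right), each taken from 2 separate pairs of arrays: the factor against untreated on the x axis, both factors against the other factor on the y axis. Green or orange points are the 9 genes, each by its brightest probe set. Grey points are the 12258 measured genes (those beyond 1.6 are outside the axes), and the dashed line marks equal readings. Bmp2 lay near the line at 1.25 and 1.04 for FGF2, and Grem1 lay far from it in both panels (0.77 and 0.04; 0.72 and -0.01).

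Set side by side by brightest probe set, the readings of FGF2 without and with IL-17A were 1.25 and 1.04 for Bmp2. They were -0.31 and -0.55 for Bmp4, -0.42 and -0.37 for Bmp5, -0.66 and -0.48 for Id2, and 0.77 and 0.04 for Grem1. The dimmer Bmp5 probe sets read -0.12 and -0.54 (1421283_at) and -0.12 and -0.75 (1421282_at). Those of Id2 read -0.10 and -0.81 (1422537_a_at) and 0.02 and -0.73 (1453596_at). For IL-17A without and with FGF2 the brightest probe sets read 0.16 and -0.05 for Bmp2 and -0.22 and -0.46 for Bmp4. They read 0.29 and 0.39 for Bmp7, and 0.72 and -0.01 for Grem1. Bmp7 probe set 1418910_at read 0.07 and 0.08. The median over the 9 members was 0.14 for IL-17A against untreated, -0.14 for FGF2 and 0.18 for both, beside -0.01, -0.01 and 0.00 over all measured genes. With members on both sides of 0, these medians describe no common shift.

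**Figure D4:**
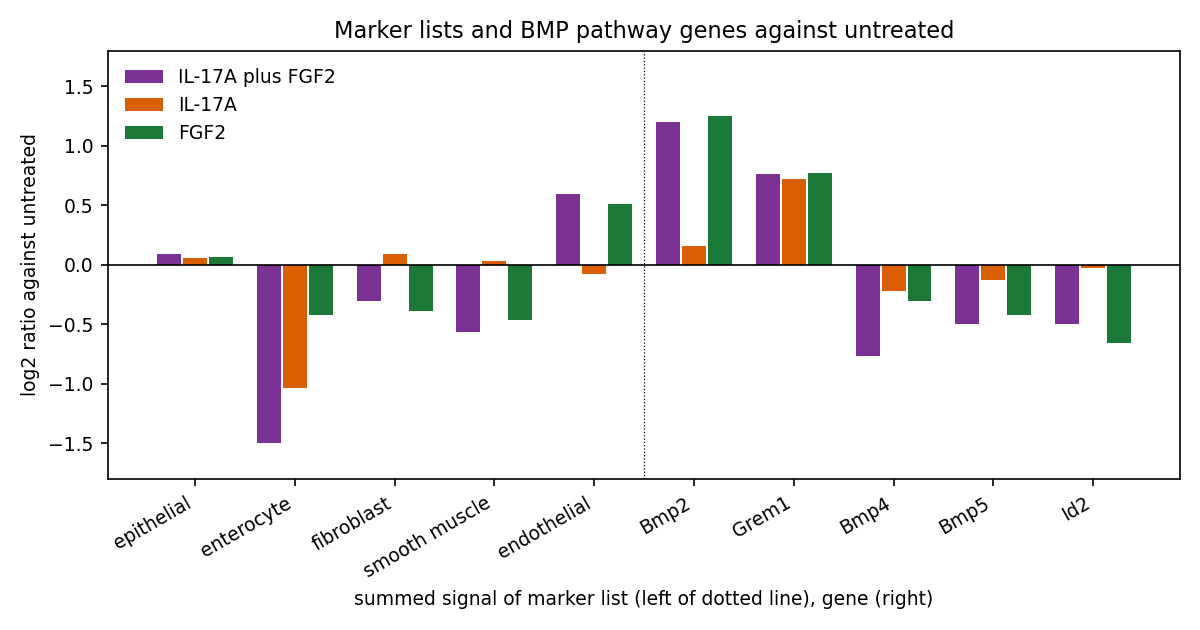
Log2 ratio against untreated of the summed signal of each marker list (left of the dotted line) and of the brightest probe set of 5 member genes (right). Bars stand for IL-17A plus FGF2, IL-17A and FGF2. Endothelial sums (0.59, -0.08 and 0.51) had the signs seen for Bmp2 except with IL-17A. Fibroblast sums were at -0.31, 0.09 and -0.39, and epithelial sums at 0.09, 0.06 and 0.06. On each treated array 5 of the 7 epithelial markers were above untreated, and Vil1 was below it (-0.69, -0.24 and -0.33).

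The rest of the pathway was read from lists of 68 genes, of which 63 were on the array under 1 symbol and 47 were measured. For both factors against untreated, 0 of 47 were at least 2-fold different, beside 2.64% of all measured genes. In each other comparison it was also 0 of 47, beside 0.228% to 0.963% of measured genes in each direction. A count of 0 of 47 lies near these shares and is not read as a result about the pathway. The median log2 ratio of the 47 genes for both factors against untreated was 0.00. The genes given next, by their brightest probe set, were picked after their values were seen, some for their size and some for their known role.

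Of 5 measured further ligands, 2 were above and 2 below 0 with both factors. Bmp6 had signals of 307, 282 and 393 with both factors, IL-17A and FGF2, against 285 in untreated cells. Of 12 measured secreted antagonists and modulators, 4 were above 0 and 7 below. Bmper, which encodes an extracellular BMP-binding protein, had 1144, 1718 and 1558, against 2154, a log2 ratio of -0.91 for the combination. Fst, whose product follistatin binds activins and some BMPs, went the other way with 2029, 1751 and 2393, against 1477. Noggin (Nog) was under the floor on all arrays.

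Of 10 measured receptors and coreceptors, 4 were above and 6 below 0 with both factors. Tgfbr3, the coreceptor betaglycan, had signals of 693 with both factors and 614 with FGF2, against 1153 with IL-17A and 1092 in untreated cells, so it was low on both arrays with FGF2. The type II receptor gene Bmpr2 had 4860, 4517 and 4930, against 4522. Of 11 measured SMADs and intracellular inhibitors, 8 were above 0 and 3 below (median 0.13).

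The inhibitory SMADs, themselves targets of the pathway, were split. Smad7 had signals of 1818 and 1791 on the combined and FGF2 arrays, against 1429 with IL-17A and 1469 in untreated cells, and Smad6 had 772 and 735, against 984 and 920. Each pair of arrays with FGF2 was thus high for Smad7 and low for Smad6. Tob1, whose product restrains BMP SMADs, had 2782 and 2858 on those arrays, against 3763 and 4031. Of 9 other measured target genes, 3 were above 0 and 4 below with both factors, and Id4 had 1241, 1525 and 1454, against 1650.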

How the data were processed

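RNA was hybridised to Affymetrix 3' expression arrays, 1 for each of 4 groups. The authors used MAS5 for summarising probes, per the submitters' processing notes (version not given in the sources used here), and the deposited values are log2 signals. A common scaling shows in the trimmed mean of the signals, 500.003 on each array with 2% cut from each tail. Of 45101 probe sets, 64 controls were left out. Symbols came from the platform annotation (34945 probe sets with 1 symbol), and all 20 member probe sets matched the GRCm38.p6 gene table by Entrez identifier. The number of arrays limits the precision. With 1 array per group no test, p-value or replicate error was computed. The interaction is the only residual that a model adding the factors leaves (1 degree of freedom), and it served as a yardstick alone.

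Alternatives were 2 other scalings, 2 other floors, the floor added to the signal, 2 other ways to represent a gene, and 2 other fold thresholds. The members, the lists of 68 pathway genes and of cell type markers, and the alternatives were chosen with earlier results of these data known. Named genes were all members, any pathway gene at least 2-fold different, and the 3 genes nearest to a member that ranged over at least 2-fold with every signal over the floor; others are marked in the text. Calculations used Python 3.11.15, numpy 2.4.6, pandas 2.3.3 and scipy 1.17.1, and were tested on simulated arrays.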

Additional observations from a re-analysis of the deposited data

Results flagged for a closer look

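Id2 probe set 1422537_a_at gave opposite readings of IL-17A: its log2 ratios were 0.13 (IL-17A against untreated) and -0.58 (both factors against FGF2). Each was beyond the yardstick SD of 0.13 for its brightness, each rests on 1 pair of arrays, and the difference was not tested. The brightest Id2 probe set read -0.02 and 0.16 for the same pairs. Of the 18 member probe sets over the floor on all arrays, 7 had readings of opposite sign for IL-17A and 3 for FGF2. Apart from 1422537_a_at, at least 1 of each such pair lay within the yardstick SD for the probe set's own brightness. For the dim 1451729_at of Bmpr1a that SD was 0.29, and its readings of IL-17A were -0.28 and 0.22.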

How the results depend on the processing

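Each group had 1 array, so no array could be left out. A paired analysis was not possible either, with 1 array in each group. Bmp2 kept its place above 2-fold for FGF2 and for both factors against untreated in all 7 other scalings, floors and gene summaries, and the number at least 2-fold higher for both against IL-17A became 0 only under quantile normalization (Bmp2 at 0.99). At a 1.5-fold threshold the numbers higher were 1 (IL-17A), 2 (FGF2) and 2 (both) against untreated, where 1.44%, 2.34% and 3.34% of measured genes were, and the numbers lower 1 for FGF2 and 1 for both, beside 4.82% and 6.52%. At 3-fold all counts were 0. Of the log2 ratios of single members, 272 of 305 moved by less than the yardstick SD, and none reversed among those past 2-fold.

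The members' median moved by more than that SD in 8 recomputations. Centring arrays on their medians moved it to 0.33 for both factors against untreated, as it moved the median of all measured genes to 0.14; relative to that shift Bmp2 was at 1.21, Grem1 at 0.78 and Bmp4 at -0.75. A floor at the 75th percentile put the medians for IL-17A and FGF2 at 0 and that for both at 0.0106. Averaging all probe sets of a gene put the median at 0.0106 for both against untreated and -0.16 for both against FGF2. Without probe sets ending in _s, _x or _a, which leaves 7 members and no value for Grem1 or Id1, it was -0.0315 for IL-17A and 0.0106 for both. Interactions with the mean of all probe sets were -0.33 for Bmp5, -0.35 for Bmp7, -0.23 for Bmpr1a and -0.43 for Id2. Without probe sets ending in _s, _x or _a the interaction was -0.75 for Id2. Dimmer probe sets then enter, for the mean before the floor is applied. Those of Bmp7 and Bmpr1a include signals under the floor: 1432410_a_at (unfloored interaction -1.15) was over it on 1 array, and 1445413_at (-1.85) on none. Nearness to the floor limits probe sets 1432410_a_at, 1445413_at and 1453596_at, and the match of Ccno to Bmp2.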
